A study of Mus musculus with 2 samples.

Results

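The Gadd45 genes encode 3 small, stress-inducible nuclear proteins, and the p53 growth arrest genes are transcripts that the tumour suppressor p53 switches on to halt the cell cycle. Both were read out in the livers of male mice that were apolipoprotein E-deficient and had a C57BL/6J background. Such mice clear remnant lipoproteins poorly. The labels give an age of 2 months, which cannot be the age at collection after 11 weeks of diet. All animals lacked apolipoprotein E and received a semipurified Western diet for 11 weeks, on its own (control) or with oleanolic acid, a plant triterpenoid, at 0.01% of the diet, which was given to supply 10 mg per kg per day. The growth text of the control sample names oleanolic acid too, so arrays were assigned to groups by the diet characteristic. Each diet is represented by 1 array of pooled RNA. How many animals each pool held and at what time of day livers were collected is not given in the sources used here. There is thus no replicate of either diet, and no test was possible: every difference describes 2 arrays.

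The members were 10 genes chosen by name around Gadd45b, whose ratio between these same arrays was already known, so the values of the members are a description. They were Gadd45a, Gadd45b, Gadd45g, Cdkn1a, Btg1, Btg2, Ccng1, Mdm2, Ddit4 and Trp53. On the array, 9 of the 10 had a probe set annotated with that single symbol, 17 probe sets in all out of 20380 with 1 symbol. Trp53, the gene of p53 itself, was not analysed here. A probe set was called measured when its signal was at or above the array median on at least 1 array (61.5 units for the control, 59.3 for oleanolic acid). By this rule 15 of the 17 probe sets and 9 of 9 genes were measured, and the dim probe sets, 1 of Gadd45b and 1 of Cdkn1a, are given separately below.

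Gadd45 proteins bind the kinase MAP3K4 and so feed the p38 and JNK stress kinases, and they also bind PCNA and cyclin-dependent kinase complexes. Gadd45a is a classic p53 target, whereas Gadd45b is best known as an early gene of NF-kB and TGF-beta signalling and is induced in liver during regeneration and by ligands of the receptor CAR. Among the p53 targets, Cdkn1a encodes the cyclin-dependent kinase inhibitor p21, Btg2 an antiproliferative adaptor of the CCR4-NOT deadenylase, Ccng1 the atypical cyclin G1, Mdm2 the ubiquitin ligase that degrades p53, and Ddit4 the mTORC1 inhibitor REDD1, which also responds to hypoxia and glucocorticoids. Btg1, a close relative of Btg2, was placed in neither group.

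The sequences before the transcription starts are shown for the Gadd45 paralogs and for the p53 targets that held a motif marked below. Those of Mdm2 and Ddit4, which held none, are not printed. RefSeq windows of GRCm38.p6 were matched by symbol for 10 of the 10 members. Each window held 250 bases before and 50 after a start, and motifs were searched on both strands. Printed here are the 250 bases before the start of the 3 Gadd45 paralogs and of the targets Cdkn1a, Ccng1 and Btg2. Capitals mark CACGTG (the E-box), TATAAA (the TATA box), TGACGTCA (the cAMP response element) and, in Cdkn1a and Ccng1, a p53 full site of 20 bases.
Gadd45b, chr10:80929841-80930090, plus strand: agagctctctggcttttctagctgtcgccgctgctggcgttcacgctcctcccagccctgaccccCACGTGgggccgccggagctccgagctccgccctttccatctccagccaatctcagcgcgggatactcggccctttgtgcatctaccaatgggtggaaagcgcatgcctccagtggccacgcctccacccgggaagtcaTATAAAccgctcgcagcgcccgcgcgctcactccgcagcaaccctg
Gadd45g, chr13:51846425-51846674, plus strand: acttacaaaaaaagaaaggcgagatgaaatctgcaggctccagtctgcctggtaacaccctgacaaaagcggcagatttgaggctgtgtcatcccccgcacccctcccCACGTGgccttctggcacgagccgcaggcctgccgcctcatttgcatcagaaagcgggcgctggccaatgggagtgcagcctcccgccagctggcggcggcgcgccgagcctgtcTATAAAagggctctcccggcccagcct
Gadd45a, chr6:67037408-67037657, minus strand: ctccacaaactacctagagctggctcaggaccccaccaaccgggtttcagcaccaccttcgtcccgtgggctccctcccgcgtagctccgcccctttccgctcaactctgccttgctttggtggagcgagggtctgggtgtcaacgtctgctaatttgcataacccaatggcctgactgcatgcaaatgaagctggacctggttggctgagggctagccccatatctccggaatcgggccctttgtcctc
Cdkn1a, upstream start, chr17:29090729-29090978, plus strand: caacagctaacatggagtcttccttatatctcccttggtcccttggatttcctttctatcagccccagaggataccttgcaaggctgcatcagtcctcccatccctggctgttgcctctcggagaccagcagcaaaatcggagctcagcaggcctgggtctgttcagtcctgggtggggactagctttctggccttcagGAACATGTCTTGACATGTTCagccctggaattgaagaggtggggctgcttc
Ccng1, chr11:40755287-40755536, minus strand: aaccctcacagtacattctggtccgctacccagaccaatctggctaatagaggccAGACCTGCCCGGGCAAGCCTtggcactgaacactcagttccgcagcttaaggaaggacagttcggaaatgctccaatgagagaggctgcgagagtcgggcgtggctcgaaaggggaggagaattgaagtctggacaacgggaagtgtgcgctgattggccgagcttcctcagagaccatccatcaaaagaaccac
Btg2, chr1:134079156-134079405, minus strand: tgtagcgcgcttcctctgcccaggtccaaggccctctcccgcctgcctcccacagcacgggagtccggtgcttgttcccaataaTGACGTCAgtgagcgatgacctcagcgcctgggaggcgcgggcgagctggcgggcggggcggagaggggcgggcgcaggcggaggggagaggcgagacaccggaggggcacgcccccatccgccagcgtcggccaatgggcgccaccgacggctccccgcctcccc

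Gadd45b and Gadd45g shared an E-box, which began 185 and 142 bases before the start, and a TATA box, which began 46 and 27 bases before it. The E-box was held by 7.15% and the TATA box by 13.6% of 32851 windows of the same length. The window of Gadd45a held neither, and that of Btg1 held a TATA box 26 bases before the start. That of Trp53 held the E-box after the start and the letters TATAAA 248 bases before it, on the opposite strand. Cdkn1a has 2 annotated starts, 2790 bases apart, and the window of the upstream one held the p53 site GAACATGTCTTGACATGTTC, beginning 51 bases before the start. Ccng1 held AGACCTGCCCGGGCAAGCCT from 195 bases before its start. Each differed from the p53 consensus of a pair of adjoining half-sites at 1 of 20 positions. Such a site, with at most 1 mismatch and no spacer, lay in 29 of the 32851 windows (0.0883%). The p53 search was added after the sequences had been read. A single perfect p53 half-site, in 8.36% of windows, was found for Gadd45a, Mdm2 and Trp53 besides these. Btg2 held the cAMP response element, 166 bases before its start and found in 1.79% of windows. No member's window held the AP-1 motif TGANTCA (7.81% of windows). A loose NF-kB-like motif, 3 G and 2 C with any 5 bases between, stood in 50.8% of windows and is not marked. A match describes letters in a window and not binding.

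Gadd45b was the member with the largest difference, and it was higher in the oleanolic acid array. Its brightest probe set (1450971_at) gave 188 units in the control and 614 with oleanolic acid, 3.27-fold. The next (1449773_s_at, whose suffix marks probes that can also match other transcripts) had 125 and 354, 2.84-fold. Both therefore moved by a similar factor. The third (1420197_at) was dim on both arrays, with 41.4 and 48.3, a log2 ratio of 0.22. Over its 2 measured probe sets, the log2 ratio of Gadd45b was 1.61 ± 0.14 (SD, n = 2 probe sets), and it ranked 5 from the highest among 7137 measured genes. Of the 2193 other probe sets whose mean signal lay within 0.5 log2 units of the brightest one, none had a higher ratio. With the dim probe set included, the gene value was 1.15. In whole liver, a change in the number of cells of a type and a change in RNA per cell cannot be told apart.

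The paralogs of Gadd45b had ratios above 0 as well, but far smaller ones. Gadd45a gave 219.7 units in the control and 295 with oleanolic acid, so its log2 ratio was 0.43 (probe set SD 0.17). A gene with 1 measured probe set takes as its error the pooled SD of log2 ratios between probe sets of other genes of like signal, and this covers probe and hybridization error, not variation between mice. Gadd45g had 366 and 421, a log2 ratio of 0.20 (probe set SD 0.17). Among all measured genes, 4.08% had a higher ratio than Gadd45a and 14.3% a higher ratio than Gadd45g. Gadd45b exceeded Gadd45a by 1.18 and Gadd45g by 1.40 on the log2 scale. Since the genes were chosen around Gadd45b, these differences are a description only.

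**Figure D1:**
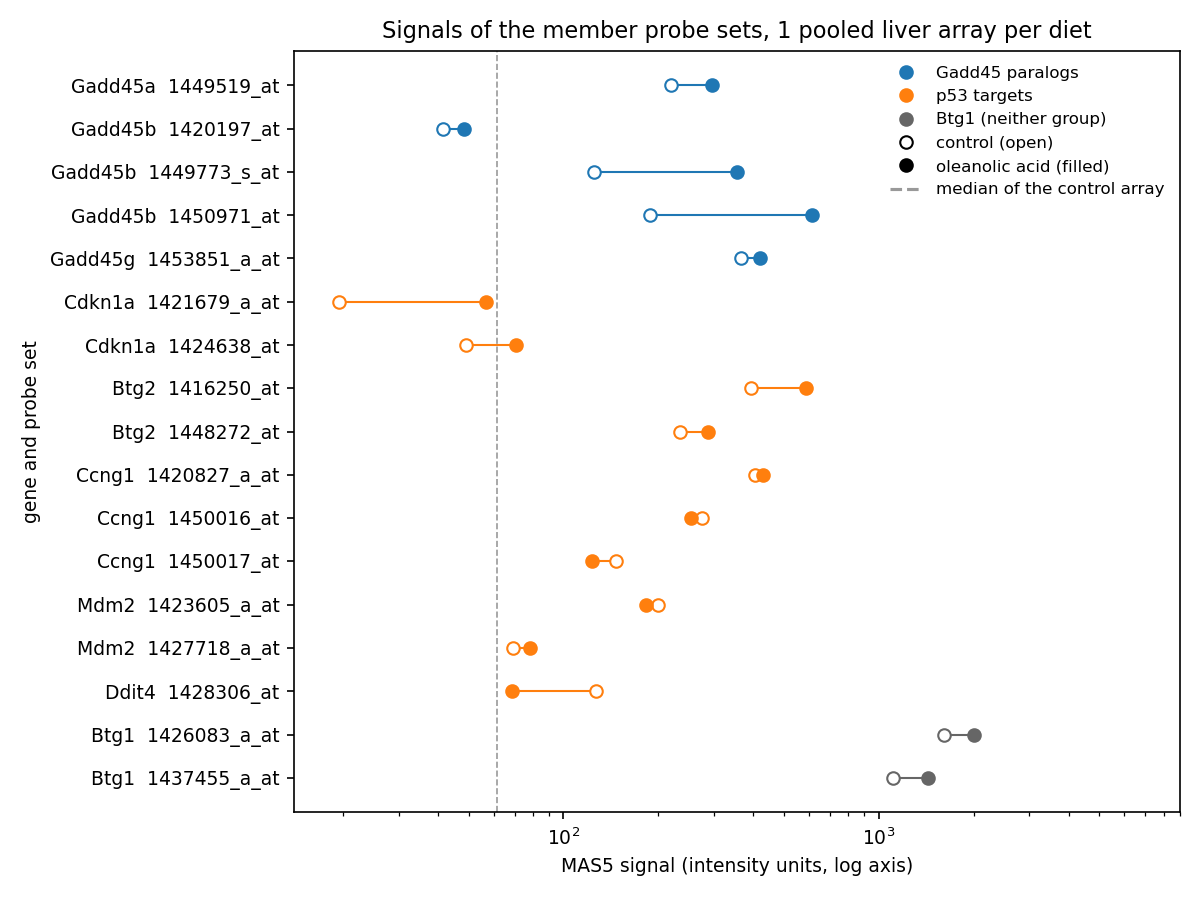
MAS5 signal (intensity units, log axis) of each of the 17 member probe sets in the control array (open circles) and the oleanolic acid array (filled circles), joined by a line. The longest lines are those of 2 Gadd45b probe sets, 188 to 614 and 125 to 354 units, and of a dim Cdkn1a probe set, 19.4 to 56.6 units, which lies below the median of the control array (dashed line, 61.5).

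Of the p53 targets, Cdkn1a and Btg2 were higher in the oleanolic acid array. The measured Cdkn1a probe set (1424638_at) gave 49.2 units in the control and 70.9 with oleanolic acid, so its log2 ratio was 0.53 (probe set SD 0.27). It counted as measured only through the oleanolic acid array, so the filter itself favoured a higher value there. The other (1421679_a_at) had 19.4 and 56.6 units, a log2 ratio of 1.54, and was dim on both arrays. Both probe sets of Cdkn1a lay in the same direction, at a signal where spread is wide: among 2116 other probe sets as dim as 1421679_a_at, the central 95% of log2 ratios ran from -1.12 to 0.78. The gene value was 1.04 when the dim probe set was included and 0.21 with the signal floor raised to each array's median.

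Btg2 gave 394 and 586 units for its brighter probe set and 234 and 287 for the other. Its log2 ratio was 0.43 ± 0.20 (SD, n = 2 probe sets), made of 0.57 and 0.29. Its relative Btg1, which restrains proliferation in a similar way, had 1605 and 2004 units for one probe set and 1105 and 1437 for the other. Both Btg1 probe sets lay close together, and its log2 ratio was 0.35 ± 0.04 (SD, n = 2 probe sets). At the signal of Btg1 ratios scatter little: of the 897 other probe sets as bright as its brighter one, 3.79% had a higher ratio. Btg1 and Btg2 differed from each other by 0.08, less than the SD of Btg2.

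Mdm2 and Ccng1, which both act back on p53, lay near 0. Mdm2 had signals of 199.9 and 182 for its brighter and 69.0 and 78.5 for its dimmer probe set, so the probe sets had opposite signs. Its log2 ratio was 0.03 ± 0.23 (SD, n = 2 probe sets). Ccng1, a target with 3 probe sets, had signals of 404 and 430.2, of 274 and 253, and of 147 and 123. Its probe sets also differed in sign, and its log2 ratio was -0.09 ± 0.17 (SD, n = 3 probe sets). Neither gene exceeded its probe set SD. Ccng1 and Cdkn1a, the members with a p53 full site in a window, thus had gene values of -0.09 and 0.53.

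Ddit4 was the member with the lowest ratio. Its single probe set gave 127 units in the control and 68.8 with oleanolic acid, 1.84-fold lower (log2 ratio -0.88, probe set SD 0.27). Both signals were above the array medians. Only 0.827% of measured genes had a lower ratio, and 0.980% of 2552 other probe sets of like signal did. Under the 9 alternative settings its log2 ratio was between -0.88 and -0.86. For a single probe set above both medians, only the normalizations among these settings could change it.

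**Figure D2:**
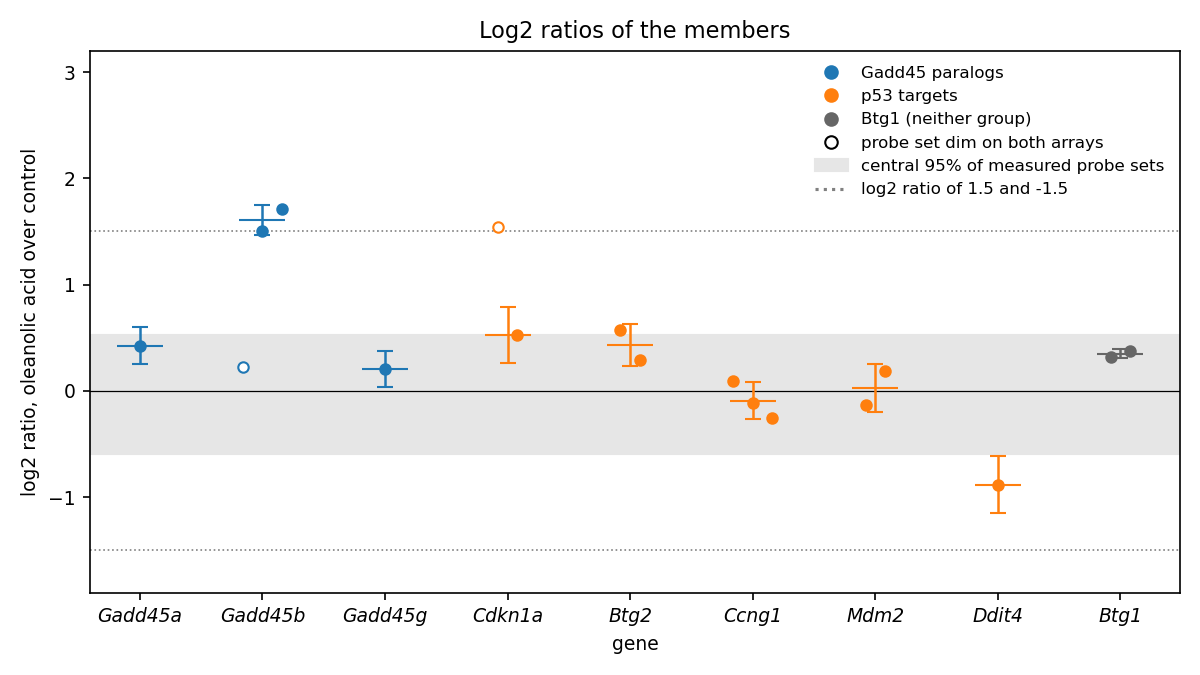
Log2 ratio of oleanolic acid over control for each member with a probe set; horizontal marks are gene values with their probe set SD, filled points measured probe sets, open points probe sets dim on both arrays. Gadd45b (1.61) lies above the dotted line at 1.5, Ddit4 (-0.88) lies below the grey band of the central 95% of measured probe sets (-0.59 to 0.53), and the other gene values lie within or at the edge of it.

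Counted together, 1 of 9 members passed a log2 ratio of 1.5, the size named in the submitters' design text, against 0.112% of all measured genes above 1.5. The same gene was the 1 member above 1 (0.392% of genes). Above 0.5 there were 2 members, Gadd45b and Cdkn1a (2.63% of genes). Below -0.5 there was 1, Ddit4 (3.24% of genes), and none lay below -1 (0.631% of genes) or -1.5 (0.280% of genes). A ratio above 0 was found for 7 of 9 members and for 50.2% of genes. Since the members were chosen with such values known, nothing is read from these shares.

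The paralogs and the p53 targets overlapped. The median log2 ratio was 0.43 over 3 Gadd45 genes and 0.03 over 5 p53 targets, a difference of 0.40, and the median of all measured genes was 0.0012. The difference of the means was 0.74. Gadd45b lay above every one of the 5 targets, while Gadd45a and Gadd45g lay below Cdkn1a and Btg2 and above Mdm2, Ccng1 and Ddit4. Of the 15 possible pairs, the Gadd45 gene was the higher one in 11. Without Gadd45b the difference of the medians was 0.29. Gadd45a, Cdkn1a and Btg2 differed from one another by less than their probe set SDs of 0.17 to 0.27. The p53 targets ran from -0.88 to 0.53, wider than the separation of the group medians. Over the 9 alternative settings the difference of the medians lay between 0.34 and 0.46. The medians were the values of Gadd45a and Mdm2, so the size of the Gadd45b ratio did not enter. Several settings left the difference unchanged at 0.40. The 0.46 came from the setting in which Cdkn1a was not measured, so from fewer targets. This range is therefore no check of the other members.

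**Figure D3:**
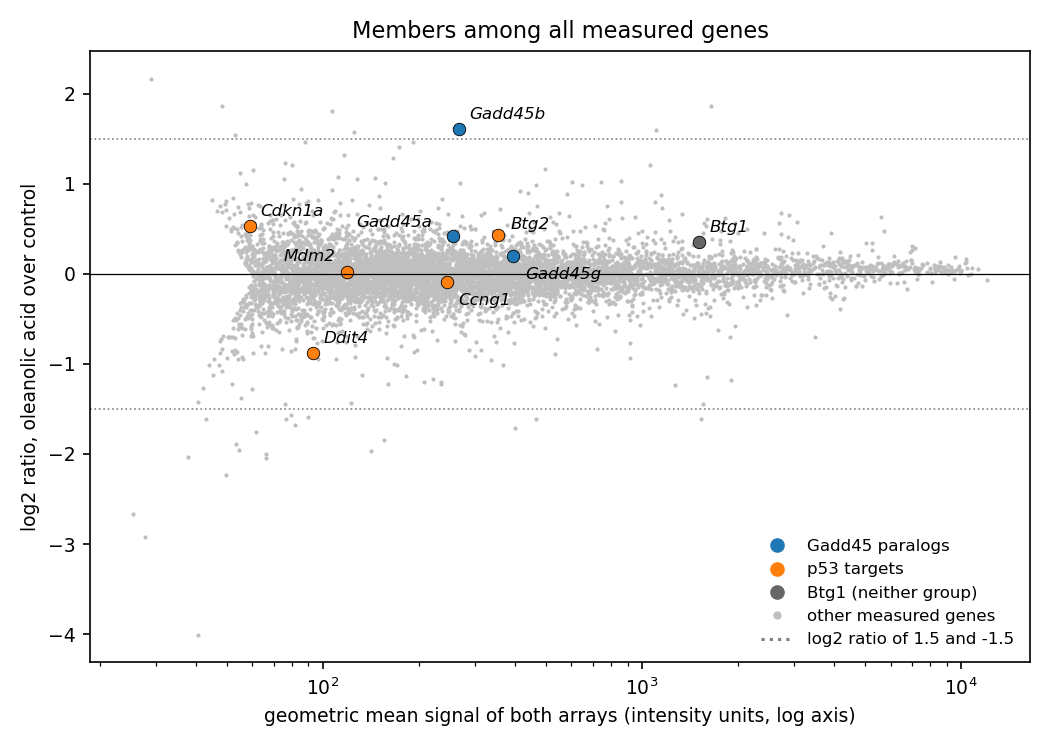
Log2 ratio of oleanolic acid over control against the geometric mean signal of both arrays (log axis) for 7137 measured genes, with the members coloured by group. Gadd45b (1.61) stands above the cloud of genes of like signal and Ddit4 (-0.88) at its lower edge, while Ccng1 (-0.09) and Mdm2 (0.03) lie inside it.

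Genes around the members were described from 8 lists of 104 names, of which 59 were measured. Of these 59, 2 lay above 0.5 (2.63% of all measured genes), 3 below -0.5 (3.24%) and none above 1 (0.392%) or below -1 (0.631%). Nothing is read from these counts. The median of the 59 was -0.02. The direct partners of the Gadd45 proteins and the stress kinases downstream mostly had ratios below 0: 9 of 10 measured genes did, against 49.7% of all genes. Of these, 8 were below 0 by more than their probe set SD, as were 18 of the 59 over all 8 lists. The share of all measured genes that were so was not counted, so nothing is read from these 8. The list median was -0.20. The lowest were Map2k6, which activates p38, with 84.5 and 48.4 units (log2 ratio -0.80, probe set SD 0.27), and Map3k4, the kinase that Gadd45 proteins bind, with 136 and 100.4 (-0.44, probe set SD 0.27). Map2k3 was at -0.32 and the JNK gene Mapk8 at -0.29. Only Map2k6 was past 0.5 in size, and it counted as measured only through the control array. It was at -0.51 with the floor at the array median and dropped out when both signals had to reach that median. Gadd45gip1, which encodes a Gadd45-binding protein of mitochondria, was the single member above 0, at 0.14. The gene values of Map2k6 and Map3k4 lay on the opposite side of 0 from that of Gadd45b. The lowest Map3k4 probe set signal, dim on both arrays, was 48.3 units in the control and 55.8 with oleanolic acid. Its signals thus differed in direction, and nothing is read from this contrast.

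Of the genes of signals that induce Gadd45b, 5 of 5 measured ones lay within 0.5 of 0 (median 0.06), as did 94.1% of all measured genes. The NF-kB subunit Rela gave 585 and 699.6 units (log2 ratio 0.26, probe set SD 0.13), Smad7 was at 0.17, Smad4 at 0.06 and Smad2 at -0.18. The other 5 genes of this list with a probe set, among them Tgfb1 and Smad3, were dim on both arrays. These are transcript levels and not activities of the pathways.

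In the wider p53 network, the shares within 0.5 of 0 are to be read beside the 94.1% of all measured genes that lie there. Among p53 regulators, 7 of 8 measured genes did (median -0.07). The remaining one was the DNA damage kinase Atr, with 133 and 93.3 units (log2 ratio -0.51, probe set SD 0.27), and after quantile normalization or intensity-dependent centring it was at -0.49. Atm was at -0.34, Trp53bp1 at -0.18 and the p53 ubiquitin ligase Rchy1 at 0.36. Of the targets of DNA repair and metabolism, 13 of 13 did, with a median of 0.04 and with the repair gene Xpc (-0.41), the polymerase gene Polk (0.34), the stress-response gene Sesn2 (-0.33) and the kinase gene Plk3 (-0.23) as the largest. Polk counted as measured only through the oleanolic acid array. The lowest Sesn2 probe set signal, dim on both arrays, was 13.5 units in the control and 33.9 with oleanolic acid, against the direction of its gene value. Among apoptotic targets the median was 0.14 over 6 genes. Bbc3, which encodes the death-promoting BH3 protein PUMA, had 68.0 and 118.9 units (log2 ratio 0.81, probe set SD 0.27), the highest value of the 8 lists. The nuclease gene Aen (0.30) and the death receptor gene Fas (0.29) followed, and Bid was at -0.58 ± 0.54 (SD, n = 2 probe sets). Bid fell within 0.5 of 0 when only its brighter probe set was kept (-0.19) or the floor was the array median (-0.12). Besides Cdkn1a, Bbc3 was thus the only measured gene above 0.5 among the p53 targets of the members and lists. Unlike Cdkn1a, Bbc3 was above the median on both arrays. Its log2 ratio was between 0.81 and 0.84 under the 9 alternatives. With 1 probe set above both medians, only the normalizations could change it.

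Relatives of single members are set beside the members they resemble. Of the other BTG/TOB family and CCR4-NOT genes, 6 of 6 lay within 0.5 of 0 (94.1% of all genes; median -0.03), with Tob2 at -0.15, Prmt1 at 0.11, Tob1 at -0.08 and Cnot6 at -0.04, beside 0.35 and 0.43 for Btg1 and Btg2. Among the other CDK inhibitors, Cdkn1b was at 0.19, Cdkn2c at -0.36 and Cdkn2d at -0.30. Cdkn2d counted as measured only through the control array. Ccng2, which encodes cyclin G2, had 374 and 530.0 units (log2 ratio 0.50, probe set SD 0.17, and 0.25 when its dim probe set was included), against -0.09 for Ccng1. Of the mTORC1 genes around Ddit4, 7 of 7 lay within 0.5 of 0, again beside 94.1% of all genes (median 0.07), with Tsc2 at 0.33, Deptor at -0.16, Eif4ebp1 at 0.10 and Rheb at 0.09. Ddit4l, the paralog of Ddit4, was dim on both arrays.

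**Figure D4:**
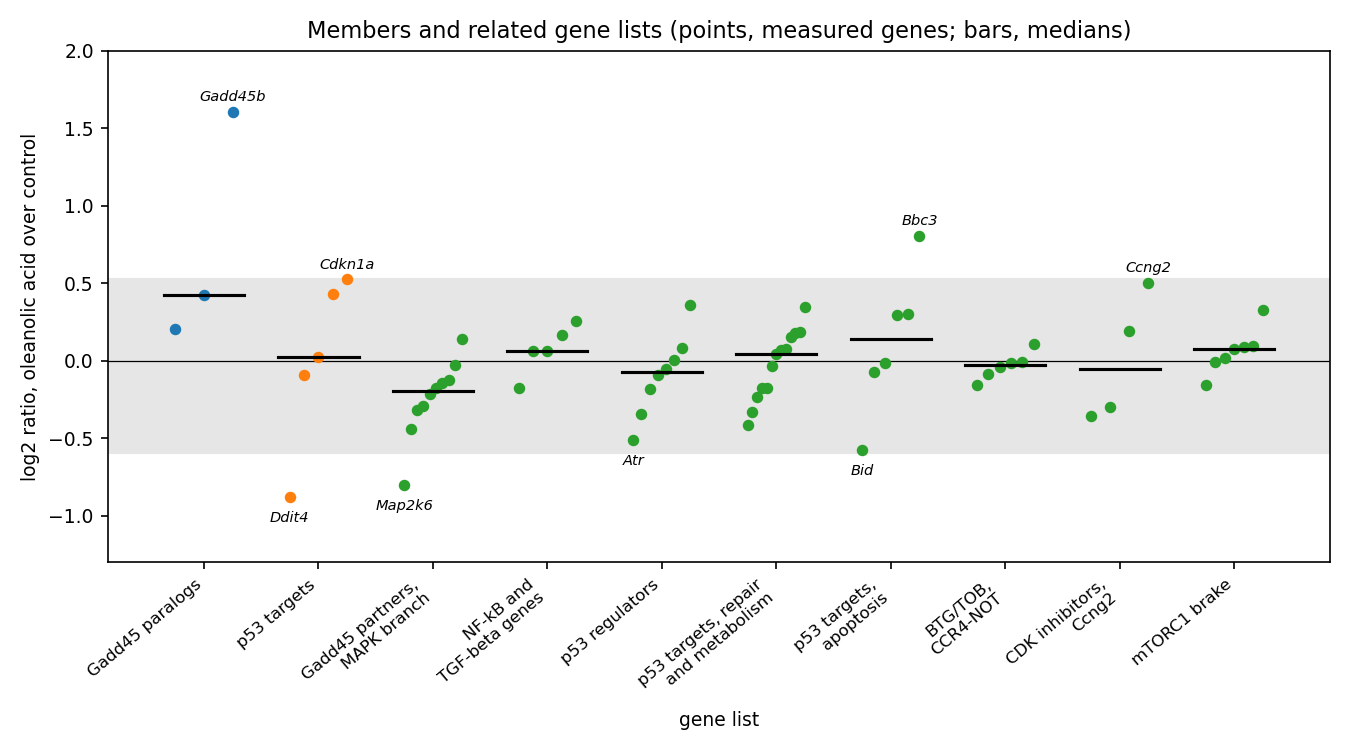
Log2 ratio of oleanolic acid over control for the Gadd45 paralogs, the p53 targets and 8 lists of related genes; points are measured genes, bars list medians and the grey band the central 95% of measured probe sets (-0.59 to 0.53). Beyond the members, Bbc3 (0.81) and Map2k6 (-0.80) lie outside the band.

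By the absolute difference of log2 ratios, the only likeness that 2 arrays allow, the genes nearest to Gadd45b were Clpx (1.60), Acnat2 (1.57), Ndufb1 (1.55), Spon2 (1.46) and Tubb2a (1.46). Nearest to Cdkn1a were Pknox1 (0.53), Chpf2 (0.53), Id4 (0.53), Spryd3 (0.53) and Epha2 (0.53). Many genes lie close to any small ratio, so the latter set singles out nothing. Nothing is read from the set near Gadd45b either. In it, Ndufb1 (31 control units) and Spon2 (53) counted as measured only through the oleanolic acid array, so the filter favoured higher ratios. Tubb2a had a probe set SD of 0.54 (n = 2 probe sets).

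Hepatocyte markers were bright on both arrays. Of 12 hepatocyte markers 10 had a probe set and 10 were measured, with summed signals of 145762 and 149486 units and a median log2 ratio of 0.05. Of these, 9 lay within 0.5 of 0, and the other was Tat, which encodes a tyrosine-degrading enzyme, with 4440 and 2725 units (log2 ratio -0.70, probe set SD 0.13). Markers of other cells moved beside the members. Exocrine pancreas genes (7 of 7 with a probe set measured) summed to 1551 control units against 421 with oleanolic acid, and 7 of the 7 counted as measured only through the control array, so the filter favoured lower ratios for them. B and plasma cell genes (2 of 5 measured) summed to 1594 and 482, and T and NK cell genes (2 of 8 measured) to 471 and 272. In each of these lists 1 measured gene, Jchain and Ms4a4b, counted only through the control array. Ighm was at -1.97 ± 1.31 (SD, n = 3 probe sets), with highest signals of 839.8 units in the control and 113.7 with oleanolic acid. Cd79a (7.3 and 7.8) and Cd79b (40.6 and 41.2) were dim and nearly equal on both arrays. Ms4a1, also dim, reached 47.5 and 29.2. Macrophage genes (10 of 10 measured, none above 0, beside 50.2% of all genes) summed to 18652 and 17429.9, and had a median of -0.13. Of these 10, 3 were below 0 by more than their probe set SD, a count with no share of all measured genes beside it, so nothing is read from it. Endothelial genes (6 of 8 measured) summed to 1572 and 1471, stellate and fibroblast genes (6 of 8) to 5710.1 and 5639, and neutrophil genes (2 of 6) to 286 and 352. Of 4 cholangiocyte genes, only Epcam was measured, with 63.1 and 32.9 units (log2 ratio -0.94), and only through the control array. The cholangiocyte list summed to 135 and 135, with 2 dim Sox9 probe sets higher with oleanolic acid. No marker probe set was at 0 on either array. The members are expressed in many cell types, and the part of these cells in the ratios of Gadd45b, Cdkn1a and Ddit4 was not tested. Apoe, disrupted in all animals, gave 194 and 232 units on 1 probe set, which is no check of the genotype because its position relative to the disruption is not given.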

How the data were processed

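Liver RNA was labelled with biotin and hybridized to Affymetrix arrays, per the labels' protocols. The deposited table gives linear intensities per probe set that the authors computed with MAS5 (version not stated) per the submitters' processing notes. After trimming 2% at either end, their mean was 300.1 on each array, so they were not rescaled. Detection calls were not used here, so a dim probe set may or may not be above background, and the number of arrays limits the precision. Of 22690 probe sets, 64 were Affymetrix controls and were left out. The platform annotation gave 20380 of the others 1 symbol, 691 several and 1555 none, and 9 of 9 members with a probe set matched RefSeq genes of GRCm38.p6 by identifier.

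Signals were floored at the 25th percentile of each array (10.7 and 10.1) and converted to log2. A gene's log2 ratio (oleanolic acid over control) averages those of its measured probe sets (11642 in all, for 7137 genes). Fold changes are 2 to the power of these ratios, computed from the deposited signals. The probe set SD is that between probe sets of a gene or, for a single one, the pooled SD of its band of 4 signal bands (0.27, 0.25, 0.17 and 0.13). The members and lists were chosen with earlier results of these data known. Members were named with every probe set, and genes of the 8 pathway lists when past 1 in size or among the 4 largest ratios of a list. Cell marker lists are given by counts and sums. The 5 genes of nearest ratio were named for Gadd45b and Cdkn1a. Other names, such as Gadd45gip1, Tgfb1, Smad3, Ddit4l, Tat, Epcam and Sox9, were chosen after their values were seen. The procedure was tested on simulated data. Python 3.11.15 with numpy 2.4.6, pandas 2.3.3, statsmodels 0.14.6 and matplotlib 3.10.9 was used. The alternatives covered the floor, the filter on dim probe sets, the normalization and the choice of probe sets.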

Additional observations from a re-analysis of the deposited data

How the results depend on the processing

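With 1 array per diet, all values rest on 2 arrays, and a change was measured against the probe set SD. No paired analysis was possible because each group holds 1 array. Of 80 member values under 9 alternatives, 4 moved by more than the probe set SD, and no value past 0.5 changed sign. With no filter on dim probe sets these were Gadd45b (1.15) and Cdkn1a (1.04). The others were Cdkn1a (0.21) with the floor at the array median, and Ccng1 (0.09) with its brightest probe set alone. Cdkn1a was not measured when both signals had to reach the median. The difference between the Gadd45 paralogs and the p53 targets lay between 0.34 and 0.46. In the main setting it rested on Gadd45a and Mdm2, so this range says little about the other members. Of 72 list medians, 1 moved by more than the pooled SD, and of 144 counts of list genes past 0.5, 10 moved by over 1.5 times, with Atr, Bid and Map2k6 among the genes concerned. The counts over all genes depended on dim probe sets. Without the filter, 12393 genes entered, of which 452 lay above 0.5, 691 below -0.5, 64 above 1, 122 below -1 and 34 below -1.5. With both signals required at the median, 145 lay below -0.5, 18 above 1, 18 below -1, 5 above 1.5 and 5 below -1.5. With the floor at the median, 18 lay above 1, 25 below -1, 5 above 1.5 and 5 below -1.5. The main counts were 188 above 0.5, 231 below -0.5, 28 above 1, 45 below -1, 8 above 1.5 and 20 below -1.5. The low signal of Cdkn1a, Bbc3, Map2k6 and Ddit4 limits how firmly their ratios can be read.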
